A study of Mus musculus with 18 samples.

Results

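The genes described here are the core machinery of DNA replication and mitosis: 43 genes chosen by name, out of 35734 genes in the authors' deposited table, of which 16757 had an adjusted p. All 43 were in that table and had an adjusted p, so no member was lost to a filter on low values. By role they comprise 13 genes that license and assemble the replicative helicase, 6 genes of DNA synthesis and nucleotide supply, 5 regulators of entry into S phase, 16 genes of G2 and mitosis, and 3 inhibitors of cyclin-dependent kinases (CDKs).

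The question of the main comparison was what the transcription factors Ikzf1 and Ikzf4 change when added to mouse embryonic fibroblasts that already express Brn2 and Myt1l. Both groups were C57BL/6 fibroblasts of the R26-M2rtTA line, which carries the doxycycline-responsive transactivator, and both received lentiviral Brn2 and Myt1l and doxycycline for 48 h. One group received vectors for Ikzf1 and Ikzf4 in addition, with 3 RNA-seq libraries per group, so every group here was infected, induced and carried Brn2 and Myt1l. A separate multiome experiment gave 1 chromatin accessibility library of a retina labelled as Muller glia with mCherry (GLAST-CRE ERT2 ; RosaYFP, C57BL/6) and 1 labelled Ikzf1/4, whose fields for tissue, cell type, line and strain hold only the name of the sample, so none of these is stated for it. The description of both multiome samples names tamoxifen at 14 days, but the run names in the fragment headers carry 48 h. Nothing in the labels says that the fibroblast libraries came from separate cultures, so p-values measure the spread between these libraries, which may be technical.

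A dividing cell licenses each replication origin once per cycle, when the origin recognition complex with Cdc6 and Cdt1 loads the ring of Mcm2 to Mcm7 onto DNA. Cyclin E with its kinase and the E2F factors carry the cell into S phase, where Cdc45 and the GINS complex activate the ring and the polymerases copy the genome. Cyclin B with Cdk1 then drives mitosis, and the CDK inhibitors hold these kinases in check. Genes of S phase are classically controlled through E2F sites, and genes of G2 and mitosis through the cell cycle genes homology region (CHR) together with CCAAT boxes. Fibroblasts in culture divide, whereas neurons and resting Muller glia do not.

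Promoters were searched for these elements because S-phase and mitotic genes are known to differ in them. For 34 of the 43 members the RefSeq promoter table of GRCm38.p6 held 37 promoters, each 300 bases long, with 250 bases before a listed start. It held none for Mcm4, Gins1, Gins2, Pole, Ccne2, Ccnd1, Ccnd2, Ccna2 and Aurkb. Motifs and retinal fragments were therefore not counted for these, although Mcm4, Ccne2 and Ccnd2 are among the members called below. A listed start is not always the outer end of the gene. For Cdc6, Orc1, E2f1 and Aurka the whole searched stretch lies inside the gene's span in GRCm38, and the sequence before that span was not searched. The letters searched on both strands were TTTCGCGC, TTTGGCGC, TTTCCCGC and TTTGCCGC for E2F, TTTGAA and TTCGAA for the CHR, CCAAT for the CCAAT box and TGGGAA for the core of the Ikaros motif. An E2F match was present in 7 of 11 licensing promoters (63.6%) and in 1 of 14 mitotic promoters (7.14%), against 2.26% of all 32851 promoters in the table. In the other S-phase roles it was present in 1 of 5 promoters of DNA synthesis genes (20%), that of Pola1, and 0 of 2 of S-phase entry regulators (Ccne1 and E2f1). A CHR match was present in 3 of 11 licensing promoters (27.3%) and in 11 of 14 mitotic promoters (78.6%), against 19.2% of all promoters. CCAAT boxes were found in 9 of 11 licensing promoters (81.8%) and 13 of 14 mitotic promoters (92.9%), against 37.4% of all. The Ikaros core was found in 5 of 11 licensing promoters (45.5%) and 3 of 14 mitotic promoters (21.4%), against 25.6% of all, and in 11 of the 37 member promoters (29.7%). A match describes letters and is not evidence of binding. The members' promoters were also richer in G and C than the table as a whole, with a median of 58.0% against 52.67%.

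**Figure D1:**
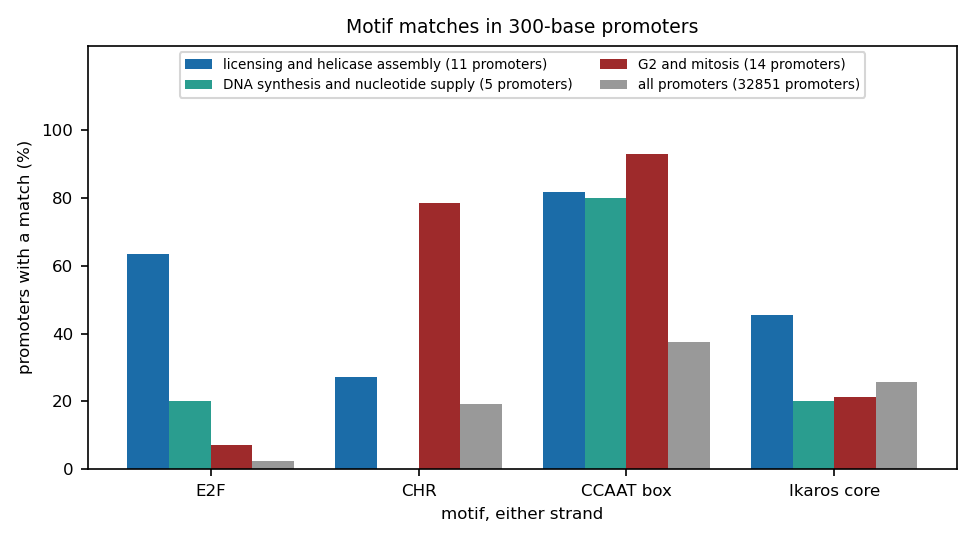
Percent of 300-base promoters with a match on either strand (y axis) for 4 motifs (x axis), in 3 roles of the members and in the whole promoter table. E2F matches are more frequent in the licensing (63.6%) than in the mitotic promoters (7.14%) and CHR matches in the mitotic (78.6%) than in the licensing promoters (27.3%), while CCAAT is the most frequent motif in both.

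Stretches of 220 bases, from 170 before the start, show promoters to which the results below return, including exceptions to this division. Capitals mark E2F, CHR and CCAAT letters on either strand. Mcm5 carries overlapping E2F matches followed by a row of CCAAT boxes, Mcm6 E2F matches at 2 places, and Cdc6 an E2F match with no CCAAT box, while Mcm2 shows no E2F match and a CHR match. The Cdc6 stretch lies inside the gene's span, so it does not describe the sequence before that span. All are from RefSeq, GRCm38.p6, written in the direction of transcription.
Mcm5 (chr8:75109339-75109558, plus strand): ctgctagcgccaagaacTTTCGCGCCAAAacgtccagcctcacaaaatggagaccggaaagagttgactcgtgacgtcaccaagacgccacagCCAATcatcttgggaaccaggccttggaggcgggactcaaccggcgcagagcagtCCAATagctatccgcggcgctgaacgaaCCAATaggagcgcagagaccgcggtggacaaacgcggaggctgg
Mcm6 (chr1:128359656-128359875, minus strand): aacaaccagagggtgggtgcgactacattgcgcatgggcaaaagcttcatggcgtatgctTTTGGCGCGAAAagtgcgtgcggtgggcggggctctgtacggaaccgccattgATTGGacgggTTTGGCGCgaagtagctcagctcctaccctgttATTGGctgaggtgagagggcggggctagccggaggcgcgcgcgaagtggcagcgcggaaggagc
Cdc6 (chr11:98907981-98908200, plus strand): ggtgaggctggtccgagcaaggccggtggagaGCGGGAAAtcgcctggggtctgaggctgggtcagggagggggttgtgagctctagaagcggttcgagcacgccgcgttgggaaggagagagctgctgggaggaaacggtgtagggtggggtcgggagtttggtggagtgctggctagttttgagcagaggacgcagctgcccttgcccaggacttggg
Mcm2 (chr6:88898731-88898950, minus strand): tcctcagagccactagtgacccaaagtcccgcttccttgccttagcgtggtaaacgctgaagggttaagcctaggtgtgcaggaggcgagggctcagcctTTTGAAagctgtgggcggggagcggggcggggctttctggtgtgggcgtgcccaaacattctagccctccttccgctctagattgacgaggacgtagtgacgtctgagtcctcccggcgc

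Among the mitotic genes, Cdk1, the single one of 14 with an E2F match, also carries CHR matches, and Ccnb2 and Cdc20 carry CHR matches near the start together with CCAAT boxes. Capitals mark the same motifs, and the source is the same.
Cdk1 (chr10:69352863-69353082, minus strand): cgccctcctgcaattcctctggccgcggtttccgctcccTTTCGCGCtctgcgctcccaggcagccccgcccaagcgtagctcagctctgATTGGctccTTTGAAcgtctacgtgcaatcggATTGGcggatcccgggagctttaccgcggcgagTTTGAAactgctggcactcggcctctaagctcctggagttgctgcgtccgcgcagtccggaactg
Ccnb2 (chr9:70421505-70421724, minus strand): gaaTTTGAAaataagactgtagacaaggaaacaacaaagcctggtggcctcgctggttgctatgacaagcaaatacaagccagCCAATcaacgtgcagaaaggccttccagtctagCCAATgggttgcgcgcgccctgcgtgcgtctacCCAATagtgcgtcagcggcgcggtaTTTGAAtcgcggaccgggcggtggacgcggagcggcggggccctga
Cdc20 (chr4:118437294-118437513, minus strand): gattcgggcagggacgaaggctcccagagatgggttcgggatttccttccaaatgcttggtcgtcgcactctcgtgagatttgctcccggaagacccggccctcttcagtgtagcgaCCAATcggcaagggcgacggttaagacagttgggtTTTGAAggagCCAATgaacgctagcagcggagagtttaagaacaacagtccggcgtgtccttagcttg

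RNA libraries held 34966344 to 44270426 estimated reads. In the authors' deposited table the added factors were higher by log2 fold changes of 8.54 (Ikzf4, SE 0.15) and 7.76 (Ikzf1, SE 0.17). Of the factors given to both groups, Myt1l was also higher with Ikzf1 and Ikzf4 in the authors' deposited table, by 0.50 (SE 0.17, adjusted p 0.0157 by DESeq2), and Brn2 (Pou3f2) was at -0.05 (SE 0.08, not called). Reads of the vectors and of the cells' own genes are not separated in these values, and the part of the Myt1l difference in the results below was not tested. Of 10 fibroblast markers, all were measured, at mean normalised counts of 695.94 to 120589.56, and 8 were lower with Ikzf1 and Ikzf4 in the authors' deposited table, with a median log2 fold change of -0.39 over the 10. The falls with the smallest p were those of Dcn, a matrix proteoglycan (-1.77, SE 0.08), Col3a1, a collagen chain (-1.29, SE 0.06), and Vim, an intermediate filament (-0.59, SE 0.06), in the authors' deposited table, each larger than any member's change. All 5 macrophage markers were measured too, at mean normalised counts of 114.83 to 2579.67 in the authors' deposited table, and 0 of them passed DESeq2 at an adjusted p under 0.05 (1 at an unadjusted p under 0.05). Of 7 neuron markers, the mean normalised count in the authors' deposited table was under 10 for 3 (Rbfox3, Snap25 and Dcx), and 1 was called (Tubb3, lower). The 4 endothelial markers had mean normalised counts of 6.57 to 132.3 and the 4 epithelial markers of 1.34 to 50.3 in the authors' deposited table. Epcam, an epithelial adhesion molecule, was higher there by a log2 fold change of 0.64 (SE 0.22, adjusted p 0.0147 by DESeq2) at a mean normalised count of 40.97. Of 4 smooth muscle markers, Cnn1 was higher (log2 fold change 0.36) and Acta2 lower (-0.50) at an adjusted p under 0.05 in the authors' deposited table. Whether any of these cell types takes part in the results below was not tested. That table gives 1 mean per gene and not a value per library, and the transcript estimates of single libraries were not paired with genes, so member values per library are not reported here.

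Across the 43 members, 7 rose and 3 fell at an adjusted p under 0.05 in the authors' deposited table (DESeq2), which is 23.3% of them. Over all 16757 tested genes the called share was 30.6%, with 15.3% higher and 15.4% lower. Among the 12511 tested genes within the members' range of mean normalised counts (75.66 to 68169.99) it was 37.2%. At this threshold the members' share was below both backgrounds. The median standard error was 0.11 for the members, 0.10 over all tested genes and 0.08 within that range, so the backgrounds are not matched in precision. With adjustment over every gene with a raw p, the members' share was 20.9%, against 19.3% of those genes. The members' changes were also small, with a median absolute log2 fold change of 0.13 in the authors' deposited table against 0.15 over all tested genes. Their log2 fold changes ran from -0.32 (Cdkn2a) to 0.52 (Ccne2), with 27 above and 16 below 0, and their median was 0.07 against -0.0004 over all tested genes. Reads of Pcna, Ccnb1, Ccnb2 and Tyms could be shared with near-identical pseudogenes, of which Ccnb2-ps had a mean normalised count of 4.98, Pcna-ps2 one of 0.71 and the others 0 in the authors' deposited table. In bulk RNA, fewer cells in a phase of the cycle and less RNA per cell cannot be told apart.

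**Figure D2:**
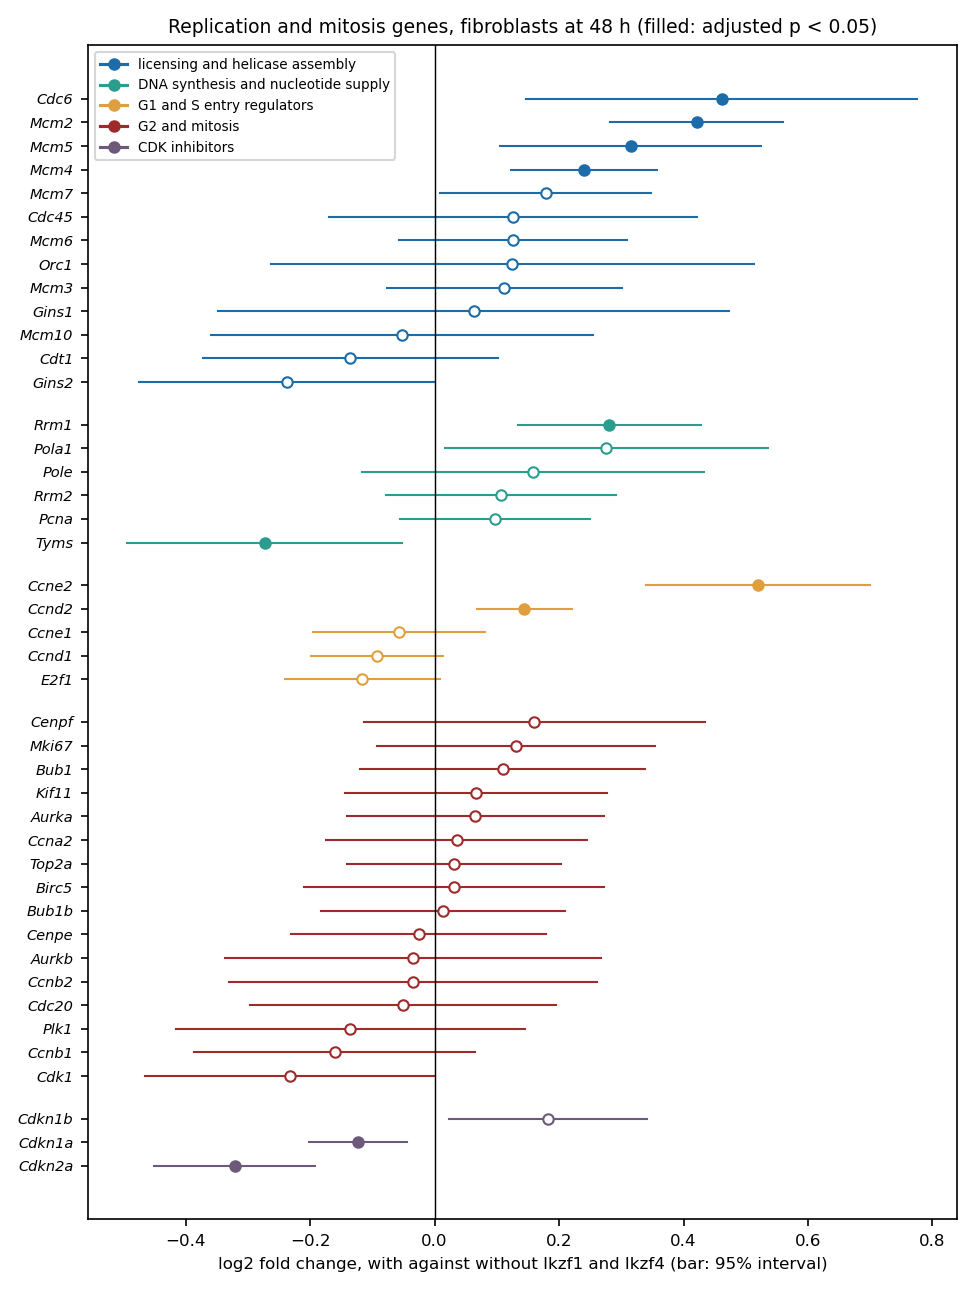
Log2 fold change with against without Ikzf1 and Ikzf4 (x axis) for each of the 43 members (y axis, grouped and coloured by role), with 95% intervals from the authors' standard errors. Filled points passed an adjusted p of 0.05. These are 4 licensing genes, Rrm1, Tyms, Ccne2, Ccnd2, Cdkn1a and Cdkn2a, and 0 of the 16 mitotic genes.

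Of the 13 licensing genes, 4 rose and 0 fell at an adjusted p under 0.05 in the authors' deposited table (DESeq2). The called share, 30.8%, was near the 30.6% of all tested genes and below the 37.2% of those within the members' range of means. Over all tested genes 15.3% were called higher. Of the 13, 10 had a log2 fold change above 0, against 50% of all tested genes, and the median was 0.13. Within the Mcm2 to Mcm7 ring, whose 6 subunits act as the core of the replicative helicase, all 6 log2 fold changes were above 0 in the authors' deposited table, from 0.11 to 0.42, and 3 of 6 were called. Mcm2 had a mean normalised count of 1337.41 and rose by a log2 fold change of 0.42 (SE 0.07, 95% interval 0.28 to 0.56), or 33.9%, with an adjusted p by DESeq2 of 4.73e-08, from the authors' deposited table. It lay at the 92.5 percentile of all tested genes. In GRCm38 the called ring genes span chr6:88883474-88898780 (Mcm2), chr16:15623897-15637400 (Mcm4) and chr8:75109468-75128439 (Mcm5). Mcm4 rose by 0.24 (SE 0.06, interval 0.12 to 0.36), or 18.1%, with an adjusted p by DESeq2 of 0.000448, from the authors' deposited table. For Mcm5 the rise in the authors' deposited table was 0.32 (SE 0.11, interval 0.11 to 0.53; adjusted p by DESeq2 0.0136). The remaining subunits Mcm7 (0.18, interval 0.01 to 0.35), Mcm6 (0.13, -0.06 to 0.31) and Mcm3 (0.11, -0.08 to 0.30) did not pass in the authors' deposited table, and their intervals overlap those of Mcm2, Mcm4 and Mcm5. Whether the subunits differ from each other was not tested.

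Of the factors that load the ring, Cdc6, the loading ATPase (GRCm38 chr11:98907709-98923942), rose by a log2 fold change of 0.46 (SE 0.16, interval 0.15 to 0.78) at a mean normalised count of 234.87 in the authors' deposited table, with a DESeq2 adjusted p of 0.0166. Cdt1, its loading partner, had a log2 fold change of -0.14 (interval -0.37 to 0.10) and Orc1, the largest subunit of the origin recognition complex, one of 0.13 (interval -0.26 to 0.51) in the authors' deposited table. Neither passed the threshold. The activators of the loaded ring were not called either in the authors' deposited table: Cdc45 at 0.13 (interval -0.17 to 0.42), Gins1 at 0.06 (-0.35 to 0.47), Gins2 at -0.24 (-0.47 to -0.0008) and Mcm10, a scaffold of the active helicase, at -0.05 (-0.36 to 0.25). Gins1 and Orc1 had the lowest mean normalised counts of the members, 75.66 and 88.76, and their standard errors, 0.21 and 0.20 in the authors' deposited table, were the widest of the 43.

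Among genes of DNA synthesis and nucleotide supply 1 of 6 rose and 1 of 6 fell in the authors' deposited table (DESeq2 adjusted p under 0.05), or 33.3% called, near the 30.6% of all tested genes. Rrm1, the large subunit of ribonucleotide reductase (GRCm38 chr7:102441695-102469771), rose by a log2 fold change of 0.28 (SE 0.08, interval 0.13 to 0.43; adjusted p by DESeq2 0.00112) in the authors' deposited table. Its partner subunit Rrm2 was at 0.11 (interval -0.08 to 0.29) there and did not pass. Tyms, thymidylate synthase (GRCm38 chr5:30038546-30073645), fell by 0.27 on the log2 scale (SE 0.11, interval -0.49 to -0.05) in the authors' deposited table, with a DESeq2 adjusted p of 0.0495. That call is at the edge: adjusted over every gene with a raw p, its p was 0.0729. The sliding clamp Pcna (0.10, interval -0.06 to 0.25), the polymerase subunits Pola1 (0.28, 0.02 to 0.54) and Pole (0.16, -0.12 to 0.43) did not pass in the authors' deposited table, and Pola1 had a DESeq2 adjusted p of 0.102.

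Of the 5 regulators of S-phase entry, 2 rose and 0 fell in the authors' deposited table (DESeq2 adjusted p under 0.05). That is 40% called, against 30.6% of all tested genes and 37.2% of those within the members' range of means. Over all tested genes 15.3% were called higher. Ccne2 (cyclin E2, GRCm38 chr4:11190433-11204779) had the largest rise of the 43 members in the authors' deposited table, a log2 fold change of 0.52 (SE 0.09, interval 0.34 to 0.70), or 43.4%, with a DESeq2 adjusted p of 2.11e-07. Ccne1 (cyclin E1), of like function, was at -0.06 (interval -0.19 to 0.08) in the authors' deposited table, so the 95% intervals of the cyclin E genes do not overlap. Ccnd2 (cyclin D2, GRCm38 chr6:127125162-127152188), with a mean normalised count of 68169.99, rose by 0.14 (SE 0.04, interval 0.07 to 0.22; adjusted p by DESeq2 0.00135) in the authors' deposited table. Ccnd1 (cyclin D1), at a mean normalised count of 25023.94, was at -0.09 (interval -0.20 to 0.01) there and was not called. E2f1, an activator of S-phase genes, was at -0.12 (interval -0.24 to 0.01) in the authors' deposited table and did not pass. Differences between paralogues were not tested.

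None of the 16 genes of G2 and mitosis was called in the authors' deposited table by DESeq2, whether at an adjusted or an unadjusted p under 0.05 (0 in both cases), where 30.6% of all tested genes were called at an adjusted p and 6443 of 16757 were under 0.05 unadjusted. Their median log2 fold change was 0.02, with 9 above and 7 below 0, and the 16 intervals together ran from -0.47 to 0.43, that is from 0.725 to 1.35 of the level without Ikzf1 and Ikzf4. The median standard error was 0.12 in this role and 0.12 in the licensing role, against 0.10 over all tested genes and 0.08 within the members' range of means. The smallest was 0.09 here (Top2a) and 0.06 in the licensing role (Mcm4). A change of equal size could thus be called there or in the backgrounds and missed here. The kinase and cyclins of mitotic entry lay at log2 fold changes in the authors' deposited table of -0.23 (Cdk1, interval -0.47 to 0.0001), 0.04 (Ccna2, cyclin A2), -0.16 (Ccnb1, cyclin B1) and -0.03 (Ccnb2, cyclin B2). The mitotic kinases were at -0.14 (Plk1), 0.07 (Aurka) and -0.03 (Aurkb), and the survivin gene Birc5, a partner of Aurkb, at 0.03 in the authors' deposited table. Spindle checkpoint genes Bub1 and Bub1b and the anaphase activator Cdc20 were at 0.11, 0.01 and -0.05 in the authors' deposited table. The proliferation marker Mki67 was at 0.13 (interval -0.09 to 0.35) and the DNA-untangling enzyme Top2a at 0.03 (-0.14 to 0.20) in the authors' deposited table. Kinetochore and motor genes Cenpe, Cenpf and Kif11 were at -0.03, 0.16 and 0.07 in the authors' deposited table. A p that misses the threshold does not show that these genes were unchanged. The intervals rest on fold changes that look shrunk toward 0, so larger changes than they cover are not excluded. Whether the licensing and mitotic roles differ as groups was not tested.

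**Figure D3:**
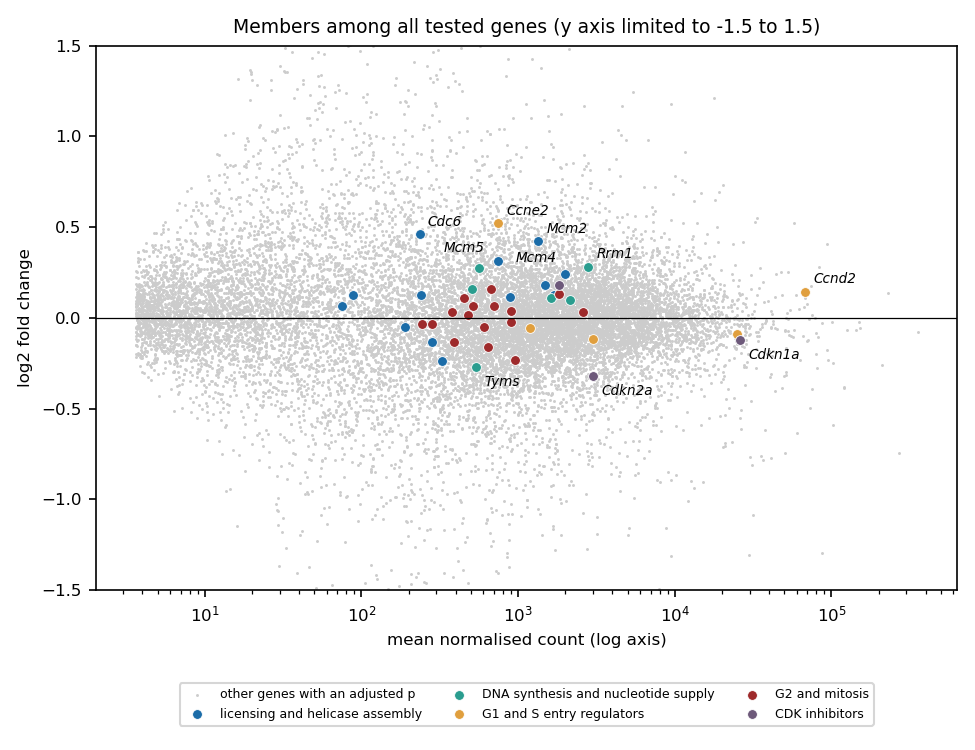
Log2 fold change (y axis, limited to -1.5 to 1.5) against mean normalised count (x axis, log scale) for genes with an adjusted p in the authors' deposited table (grey) and the 43 members (coloured by role, called members named). The members lie between -0.32 and 0.52, inside the cloud of the other genes.

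Of the 3 CDK inhibitors among the members, 2 fell and 0 rose in the authors' deposited table (DESeq2 adjusted p under 0.05). Over all tested genes 30.6% were called, 15.4% of them all lower, and 37.2% were called within the members' range of means. Of 4 other CDK inhibitors in the lists, Cdkn1c, Cdkn2d and Cdkn2b were called higher and Cdkn2c (-0.05, SE 0.14) was not called in the authors' deposited table. Cdkn2a (GRCm38 chr4:89274473-89294619), which encodes p16 (INK4a) and p19 (ARF) from separate starts, fell by 0.32 on the log2 scale (SE 0.07, interval -0.45 to -0.19), or by 19.96%, with an adjusted p by DESeq2 of 1.23e-05, from the authors' deposited table. Values of that table are per gene, so the products of its starts could not be separated. Cdkn1a (p21, GRCm38 chr17:29090979-29100722), a p53 target with a mean normalised count of 26069.08, fell by 0.12 (SE 0.04, interval -0.20 to -0.04; adjusted p by DESeq2 0.00979) in the authors' deposited table. Cdkn1b (p27) was at 0.18 (interval 0.02 to 0.34; adjusted p by DESeq2 0.073) in the authors' deposited table and did not pass. The promoters at both Cdkn2a starts are shown because they differ in content: the upstream one holds an E2F match, and the downstream one a CCAAT box and no E2F match (RefSeq, GRCm38.p6, capitals as above).
Cdkn2a, upstream start (chr4:89294570-89294789, minus strand): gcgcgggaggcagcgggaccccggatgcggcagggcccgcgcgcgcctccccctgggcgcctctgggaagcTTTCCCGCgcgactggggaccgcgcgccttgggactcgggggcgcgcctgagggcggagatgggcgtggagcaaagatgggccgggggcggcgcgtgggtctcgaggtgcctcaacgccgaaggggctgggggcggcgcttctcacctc
Cdkn2a, downstream start (chr4:89282143-89282362, minus strand): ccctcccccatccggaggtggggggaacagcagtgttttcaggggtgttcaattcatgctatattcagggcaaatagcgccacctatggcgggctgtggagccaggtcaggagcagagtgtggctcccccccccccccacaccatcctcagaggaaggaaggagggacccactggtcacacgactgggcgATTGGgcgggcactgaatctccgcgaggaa

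Further genes of the same pathways were taken from lists of named pathways. Of 43 other replication genes, 5 rose and 1 fell (DESeq2 adjusted p under 0.05 in the authors' deposited table; 30.6% of all tested genes were called), with a median log2 fold change of 0.05. The rises with the smallest p were those of Slbp, the histone mRNA binding protein (0.44, SE 0.07), Wdhd1, a replisome scaffold (0.39, SE 0.10), and Pola2, a subunit of the primase polymerase (0.35, SE 0.11), and the fall was that of Rfc5, a clamp loader subunit (-0.37, SE 0.15), in the authors' deposited table. Of 54 other mitosis genes, 2 rose and 1 fell, with a median of -0.0031 in the authors' deposited table. The calls were Espl1, the separase gene (0.91, SE 0.19), Kif20b, a kinesin (0.33, SE 0.11), and Ckap2, a spindle protein (-0.52, SE 0.09), in the authors' deposited table.

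Among 24 genes of the retinoblastoma (RB), E2F and CDK network, 7 rose and 2 fell in the authors' deposited table (DESeq2 adjusted p under 0.05), with a median log2 fold change of 0.04. The called count, 9 of 24, compares with 30.6% of all tested genes and 37.2% of those within the members' range of means. Cdkn1c (p57), a CDK inhibitor outside the 43 members, had the largest change of this list in the authors' deposited table, a rise of 1.85 (SE 0.11, adjusted p by DESeq2 3.26e-57). It was followed by Tfdp2, a partner of E2F factors (0.70, SE 0.08), and Rb1, the retinoblastoma gene (0.42, SE 0.08), in the authors' deposited table. The falls were those of Rbl1 (p107, -0.30, SE 0.09) and Cdk6, a G1 kinase (-0.26, SE 0.08), in the authors' deposited table. Cdkn2d (p19, INK4d), chosen after its value was seen, rose by 0.30 (SE 0.08, adjusted p by DESeq2 0.00121) in the authors' deposited table. Cdkn2b (p15), chosen in the same way because it is the neighbour of Cdkn2a, rose by 0.18 (SE 0.06, adjusted p by DESeq2 0.0131) in the authors' deposited table while Cdkn2a fell.

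Among 20 genes of p53 and its targets, 7 rose and 3 fell in the authors' deposited table (DESeq2 adjusted p under 0.05), with a median of 0.08. The called count, 10 of 20, compares with 30.6% of all tested genes and 37.2% of those within the members' range of means. Perp, a membrane protein of cell death (1.10, SE 0.09), Pmaip1 (Noxa, 0.98, SE 0.08) and Fas, a death receptor (0.58, SE 0.09), rose in the authors' deposited table. Eda2r, a receptor (-0.62, SE 0.05), Btg2, an anti-proliferative gene (-0.56, SE 0.07), and Trp53 itself (-0.20, SE 0.06) fell in the authors' deposited table. Cdkn1a, itself a p53 target, is counted among the members.

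In the retina multiome, fragments within 500 bp of the members' starts were counted over barcodes with at least 3000 fragments, 1964 control and 762 Ikzf1/4 barcodes, of which 3 were shared. The kept barcodes held a median of 6265.5 control and 10817.5 Ikzf1/4 fragments. Of their fragments, 20.7% (control) and 19.3% (Ikzf1/4) lay at the start of any gene. Those shares were 9.5% and 11.5% over all barcodes, and 15.1% and 17.3% over barcodes with at least 10000 fragments. With 1 library per group there is no test, and intervals cover counting error only. Of the 37 member starts, 35 (34 genes) had at least 100 fragments in both libraries together, as had 12637 of all 32851 starts. Per 1000000 fragments of the barcodes kept, the medians over such starts were 19.5 control and 17.0 Ikzf1/4 fragments for the members and 16.4 and 15.5 for all. The upstream start of Cdkn1a (6 and 10 fragments) and the downstream start of Cdkn2a (14 and 13) were under the minimum. Summed, the members gave a ratio of Ikzf1/4 to control of 0.85 (95% interval 0.82 to 0.87), against 0.93 over all such starts. Windows of neighbouring starts can overlap, as those of the Mcm7 starts do, and a fragment in both is then counted at each. The interval does not allow for this. Below 0.8 were 13 of the 35 member starts (37.1%), against 19.5% of all starts, and above 1.25 was 1, against 6.83% of all, while 26.4% of all starts lay past either fold. The side of 1 on which the members lay turned with the barcodes counted: the ratio was 1.15 over all barcodes and 1.04 over barcodes with at least 10000 fragments, where all starts gave 1.24 and 1.16. The count below 0.8 was 0 of 35 over all barcodes (2.25% of all starts) and 4 of 35 over barcodes with at least 10000 fragments (11.4%, against 6.16% of all starts). The count above 1.25 was then 8 of 35 (5967 of all 12637 starts) and 5 of 35 (4202 of 12637). Relative to all starts, the members were at 0.90 to 0.92 in the settings tried. Scaling by the fragments at the starts of all genes moves both alike and cannot change this value. The other settings reuse the same 1 library per group.

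By role, and relative to all starts, licensing starts were at 0.85 (0.84 to 0.87 over the settings tried), synthesis starts at 0.85 (0.83 to 0.85), mitotic starts at 0.94 (0.94 to 0.96), the 2 starts of S-phase entry regulators at 0.97 (0.97 to 1.02) and starts of CDK inhibitors at 1.15 (1.09 to 1.15). Over barcodes with at least 3000 fragments, single ratios ran from 0.66 to 0.99 at licensing starts and from 0.73 to 1.02 at synthesis starts. Intervals at Cdt1, Rrm2, Pola1, Tyms and both Mcm7 starts included the 0.93 of all starts. Those at Mcm3, Mcm5, Mcm10, Cdc45 and Rrm1 lay below it. Orc1, Cdc6 and Mcm6, given first here, had the lowest ratios of the 35 member starts. Orc1 had 22.9 fragments per 1000000 in the control against 15.1 with Ikzf1/4, a ratio of 0.66 (0.56 to 0.78). Cdc6, whose promoter with its E2F match is shown above, had 18.5 and 12.4, a ratio of 0.67 (0.56 to 0.80). At the start of Mcm6 the values were 13.8 and 9.3 (ratio 0.67, 0.54 to 0.83), and at that of Pcna 44.9 and 32.6 (0.73, 0.65 to 0.81). Mcm2, with 19.5 and 17.7 (0.91, 0.77 to 1.07), and Mki67, with 19.4 and 19.2 (0.99, 0.84 to 1.16), had intervals that include 1 and also the 0.93 of all starts. Of other mitotic starts, Cenpe was at 0.70 (0.55 to 0.87) and Top2a at 0.74 (0.64 to 0.86), and both intervals included 1 over all barcodes and over those with at least 10000 fragments. All starts together gave 1.24 and 1.16 in these settings. The Top2a interval lay below both values. That of Cenpe included 1.24 over all barcodes and lay below 1.16 in the other setting. Over all barcodes Mcm2 was at 1.27 (1.09 to 1.47) and Mki67 at 1.33 (1.15 to 1.54), and both intervals included the 1.24 of all starts. The intervals of Orc1 (0.94, 0.80 to 1.09), Cdc6 (0.90, 0.76 to 1.06), Mcm6 (0.88, 0.73 to 1.07) and Pcna (0.98, 0.88 to 1.09) included 1 and lay below 1.24. Over barcodes with at least 10000 fragments Orc1 (0.73, 0.59 to 0.92), Cdc6 (0.77, 0.60 to 0.99) and Pcna (0.85, 0.73 to 0.9952) stayed below 1, the intervals of Mcm6 (0.79, 0.59 to 1.05) and Mcm2 (1.19, 0.94 to 1.503) included it, and Mki67 (1.27, 1.01 to 1.595) was above it. Against the 1.16 of all starts, the interval of Mcm6 lay below, and those of Mcm2 and Mki67 included that value. With the wider window or scaled by the fragments at all starts, the intervals of Orc1, Cdc6, Mcm6 and Pcna lay below 1. Cdkn1b had 35.0 and 38.1 (1.09, 0.97 to 1.22), and its interval lay above 1 in the other settings tried, with ratios of 1.12 to 1.42. Over barcodes with at least 10000 fragments that interval (1.12 to 1.58) included the 1.16 of all starts. The upstream start of Cdkn2a had 50 control fragments and 55 with Ikzf1/4 (ratio 1.33, 0.89 to 1.99), with ratios of 1.09 to 1.56 in the other settings and an interval above 1 over all barcodes alone. That last interval (1.13 to 2.13) included the 1.24 of all starts.

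Starts of retinal cell type markers were counted in the same way, over barcodes with at least 3000 fragments only. The 4 Muller glia marker starts counted (Glul, Rlbp1, Slc1a3 and Vim) had ratios of 0.52 to 0.77, the 4 cone marker starts 0.45 to 0.78, and the 3 rod marker starts (Nr2e3, Nrl and Pde6b) 2.46 to 3.32, while the 7 bipolar marker starts ran from 0.62 (Vsx1) to 2.52 (an Otx2 start). Most of the bipolar starts belong to Otx2, some with overlapping windows, and the rest to Grm6, Prkca and Vsx1. Under 100 fragments in both libraries together had the rod starts, that of Opn1mw, a cone opsin (0.45), that of Vsx1 and this Otx2 start, without which the cone starts ran from 0.47 to 0.78 and the bipolar starts from 0.89 to 1.64. The rod ratios rest on 20 to 28 control fragments and 55 to 71 with Ikzf1/4. Starts of cone, rod and bipolar markers thus held fragments in both libraries, as did those of Muller glia markers. No background level was set for such counts, so they do not show which cell types were present. Whether the libraries differ in their mix of cell types, and the part of such a difference in the ratios of the members, was not tested.

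**Figure D4:**
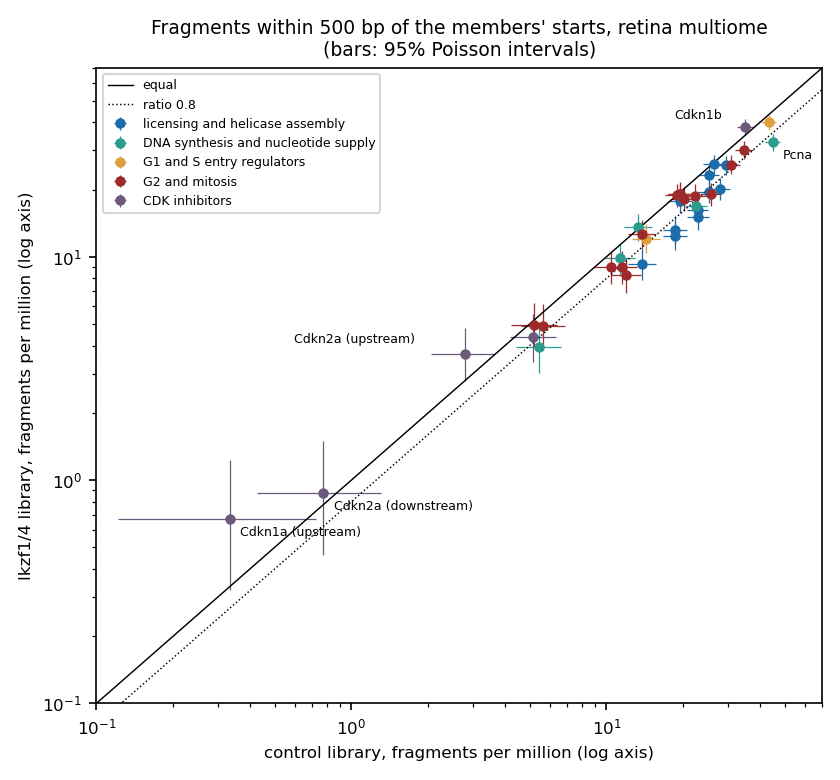
Fragments per 1000000 within 500 bp of each of the 37 member starts in the control (x axis, log scale) and Ikzf1/4 (y axis, log scale) multiome libraries, coloured by role, with 95% Poisson intervals for counting error. Of the 35 starts with at least 100 fragments, 31 lie below equality (solid line), as do 8354 of all 12637 such starts, and 13 below a ratio of 0.8 (dotted line), with Pcna at 44.9 and 32.6, and the Cdkn1b and upstream Cdkn2a starts above equality with intervals of the ratio that include 1.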

How the data were processed

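Members and gene lists were chosen with earlier results of these data known. Gene values come from the authors' deposited table, made from poly(A)-selected RNA. The submitters' processing notes name Salmon and DESeq2 without stating their roles, and the table's columns are of the kind DESeq2 writes. Deposited per gene are a mean normalised count (a signal averaged by the authors), log2 fold changes and their errors, the Wald score and p-values before and after adjustment. Versions, the annotation release and any shrinkage of fold changes are not stated in those notes. The values look shrunk, since errors are small at the lowest counts. In the authors' deposited table Rbfox3 had SE 0.05 at a mean of 0.19, and Syp SE 0.22 at a mean of 20.3. Fold changes, percent changes and intervals may therefore lie too close to 0, most for genes with low counts. The deposited transcript files give estimated counts, used here for depth alone because the sources do not pair transcripts with genes, so the edgeR fit planned per gene was not run. Fibroblast peak lists were not used, since the submitters' processing notes name both mm9 and mm10. Multiome fragment files were made with cellranger-arc 2.0.1 and an mm10 reference, per the file headers, and list unique fragments with counts of read pairs.

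Intervals of log2 fold changes are the estimate ± 1.96 SE. Benjamini-Hochberg and Bonferroni adjustments and fragment counts were computed with Python 3.11.15, SciPy 1.17.1 and pandas 2.3.3, and tested on simulated data. Fragments overlapping a start window were scaled per 1000000 fragments of the barcodes kept, with no doublet caller, and ratios carry exact binomial 95% intervals. The folds of 0.8 and 1.25, the range of means used as background and the minimum of 100 fragments per start were set with the values in view. The text names all 43 members and, of each other pathway list, up to 3 called genes with the smallest adjusted p in each direction. The other CDK inhibitors are named beyond this rule, after their values were seen, and cell type markers and the added factors as checks. Alternatives were other adjustments, thresholds and filters for genes, and other barcode minimums, windows and scalings for fragments.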

Additional observations from a re-analysis of the deposited data

How the results depend on the processing

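Of the 43 members, 10 were called (23.3%, against 30.6% of all genes tested). With Benjamini-Hochberg adjustment over every gene with a raw p, 9 were called (Tyms was lost), or 20.9% against 19.3%, where the second share is over the 24712 genes with a raw p and not the 16757 with an adjusted one, as for Bonferroni. It was 7 at an adjusted p under 0.01 (16.3% against 22.5%), 11 at one under 0.1 (Cdkn1b was added; 25.6% against 36%), 7 with an absolute log2 fold change over 0.25 (16.3% against 22.7%) and 10 among genes with a mean of at least 100 (24.4% against 39%). Bonferroni adjustment over every gene with a raw p left 3, Mcm2, Ccne2 and Cdkn2a (6.98% against 7.01%). No paired analysis was possible because the transcript estimates of the libraries could not be paired with genes from the sources used here, and leaving out each library, DESeq2 with its size factors, no filter on low counts and limma on TPM values were not run for that reason.

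The summed ratio of the members' starts in the retina was 0.85. It was 1.15 over all barcodes, 1.04 over barcodes with at least 10000 fragments and 0.91 when scaled by the fragments at the starts of all genes, and 0.86 with the wider window. Starts below 0.8 that turned over all barcodes were those of Top2a (1.02), Cdc45 (1.08), Mcm10 (1.02), Bub1 (1.10), Cenpe (1.06), Tyms (1.06) and Rrm1 (1.05), and over barcodes with at least 10000 fragments that of Bub1 (1.10). All starts together gave 1.24 over all barcodes and 1.16 over barcodes with at least 10000 fragments, above each of these ratios. The cause of the turn was not tested. Of starts with under 100 fragments, that of p16 at Cdkn2a and the upstream one of Cdkn1a, no direction was read.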
